A study of Mus musculus with 12 samples.

Results

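The comparison described here is that of rosiglitazone with vehicle in the epididymal white adipose tissue (eWAT) of leptin-deficient mice. Its members were the libraries whose labels give this depot, the Lepob/Lepob strain and one of these treatments, and they number 4 of the 12 single-cell libraries of the series. All 4 came from male ob/ob mice aged 12 weeks, 1 biological replicate per library. The 2 ob/ob-Rosi mice had received 30 mg/kg rosiglitazone by gavage, morning and evening, over 3 days, and the 2 ob/ob-Veh mice had received the methylcellulose vehicle on the same schedule. About 300 mg of tissue was digested with collagenase and floating adipocytes were discarded, so the data describe the stromal vascular fraction (SVF) and not mature fat cells. Barcodes with 700 to 22000 unique molecular identifiers (UMIs), 200 to 6000 detected genes and under 25% mitochondrial UMIs were kept, which left 36423 cells of the 57613 in the 6 eWAT libraries, the remaining ones being from lean vehicle-treated WT-Veh mice. Values below are given for ob/ob-Veh 1 and 2 first and ob/ob-Rosi 1 and 2 second.

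Rosiglitazone is a thiazolidinedione that binds and activates peroxisome proliferator-activated receptor gamma (PPARγ), a nuclear receptor that drives the formation of adipocytes and the genes by which they take up and store fatty acids. The SVF of eWAT holds the cells that could answer such a drug besides adipocytes. They include adipocyte progenitor cells (APCs), endothelial cells (ECs), the mesothelium that covers this depot, and a large immune compartment. Among its macrophages, lipid-associated macrophages (LAMs) carry the lipid receptor Trem2, fatty acid-binding proteins and a large lysosomal apparatus, and perivascular macrophages (PVMs) carry scavenger receptors such as Cd163 and Lyve1.

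The kept cells numbered 9165 and 7751 in the ob/ob-Veh libraries and 9439 and 10068 in the ob/ob-Rosi libraries, with 50406666, 41877085, 34460028 and 61696779 UMIs in the same order. The median depth of ob/ob-Rosi 1 was 2341 UMIs per cell, against 4401 to 4961 in the other 3. Unequal numbers of barcodes were at or over the limit on mitochondrial UMIs, 732 of 10321 and 1861 of 9988 in ob/ob-Veh against 200 of 11000 and 330 of 11669 in ob/ob-Rosi, and the part of this difference in the results below was not tested. Pairs of these libraries shared 19 to 33 cell barcodes, at most 0.36% of the smaller library. Several values stand apart and apply to every result below, and they are given without a verdict on the labels. The ob mutation leaves the Lep transcript in place, so its presence cannot check the genotype, and Lep mRNA is known to be raised in ob/ob fat. Per 100 Adipoq UMIs, Lep had 3.96 and 16.2 UMIs under the label ob/ob-Veh. It had 240 and 390 under ob/ob-Rosi and 28.0 and 42.5 under WT-Veh. In the same order of groups, Lep UMIs numbered 7 and 43, 60 and 277, and 33 and 37. Adipoq UMIs numbered 177 and 265, 25 and 71, and 118 and 87, so the ratio also moves with Adipoq. Scaled to a common library total (CPM), Lep was at 0.139 and 1.03, 1.74 and 4.49, and 0.784 and 0.996. By CPM, ob/ob-Veh 1 was below both WT-Veh libraries and ob/ob-Veh 2 was not. LAM-like cells, which the field associates with obesity, made up 37.8% and 28.5% of the WT-Veh libraries, 34.8% and 38.0% of the ob/ob-Rosi libraries, and 0.633% and 1.05% of the ob/ob-Veh libraries. In the clustering, most APCs and macrophages of the ob/ob-Veh libraries formed clusters of their own while most of those of the ob/ob-Rosi and WT-Veh libraries fell together. Among the exceptions was a macrophage cluster that was not perivascular (762 and 445 cells in ob/ob-Veh, 388 and 197 in ob/ob-Rosi). Another was an APC-like cluster led by Pi16 (642 and 373 against 247 and 64). Both held cells of every library. When APC-like cells were clustered on their own, the Progenitor-like cells of the 2 groups fell mostly in different clusters. Cells that float with the adipocytes are not in these libraries, and LAMs lost in that way cannot be counted here. The study imaged that layer, which is not analysed here. Whether the ob/ob-Veh and WT-Veh labels of these libraries were exchanged cannot be told from these counts, and with an exchange the contrast would set treated ob/ob mice against lean ones. Directions below are those of the libraries as labelled.

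The cell classes were named from marker genes, and their shares of each library differed between the groups for several classes. Mesothelial-like cells made up 6.46% and 6.35% of the ob/ob-Veh libraries and 1.05% and 0.507% of the ob/ob-Rosi libraries, which is 592 and 492 cells against 99 and 51. APC-like cells made up 44.7% and 38.9% against 26.3% and 24.9%. Macrophage-like cells went the other way, from 29.7% and 30.8% to 53.8% and 45.4%, and Monocyte-like cells from 1.56% and 0.916% to 3.04% and 4.86%. In none of these 4 classes did the groups overlap. The same held for B-like, DC-like and T- and NK-like cells, so a lack of overlap does not set the 4 apart. In edgeR's quasi-likelihood test of the cell numbers, adjusted over 8 classes, the Mesothelial-like log2 change was −3.04 (SE 0.39, adjusted p = 0.00675), the APC-like −0.71 (SE 0.17, adjusted p = 0.0368), the Macrophage-like 0.71 (SE 0.21, adjusted p = 0.0368) and the Monocyte-like 1.67 (SE 0.44, adjusted p = 0.0368). B-like cells were few, 99 and 57 against 32 and 50, with a log2 change of −1.12 (SE 0.33, adjusted p = 0.0368). DC-like, EC-like and T- and NK-like numbers did not pass the test (adjusted p = 0.265, 0.467 and 0.467), and the EC-like share alone ranged from 2.32% to 6.15% within the ob/ob-Veh group. With any 1 of the 6 libraries left out, the APC-like, Macrophage-like, Monocyte-like and B-like calls were lost (lowest adjusted p = 0.0536), and the Mesothelial-like call was kept (highest adjusted p = 0.0483). In the fit that blocks on the replicate number, the APC-like, Macrophage-like and B-like calls were lost too (adjusted p = 0.0688, 0.0688 and 0.0656). Shares sum to the whole, so a change in 1 class shifts the others.

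**Figure D1:**
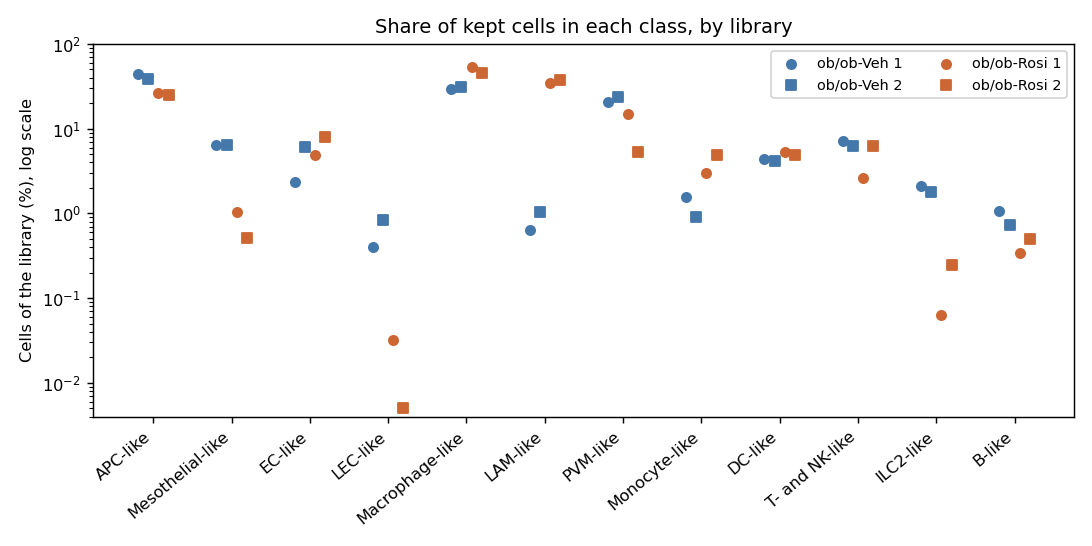
Share of each cell class among the kept cells of the 4 ob/ob eWAT libraries, in percent on a log axis, with circles for replicate 1 and squares for replicate 2, blue for ob/ob-Veh and orange for ob/ob-Rosi; a share of 0 is drawn at the foot of the axis. LAM-like cells lie at 34.8% and 38.0% in ob/ob-Rosi against 0.633% and 1.05% in ob/ob-Veh, and Mesothelial-like and ILC2-like cells are lower in both ob/ob-Rosi libraries.

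Within these classes the finer groups are described without a test, because they were cut with the genes that differ between the conditions. LAM-like cells numbered 58 and 81 in the ob/ob-Veh libraries and 3282 and 3830 in the ob/ob-Rosi libraries. They came from 4 clusters, of which 1 was led by LAM genes such as Gpnmb and Spp1 (7 and 13 cells against 823 and 1218). The others were led by inflammatory, cycling or general macrophage genes, and 2 of these scored higher for the general macrophage markers. PVM-like cells made up 20.8% and 24.0% against 14.9% and 5.35%. Among APC-like cells, the Progenitor-like group (Pi16 and Dpp4 among its markers) took 21.6% and 16.2% of the ob/ob-Veh libraries and 4.02% and 1.85% of the ob/ob-Rosi libraries. The Preadipocyte-like group, which carries more Col4a1, Lpl and Fabp4, took 8.99% and 12.3% against 21.4% and 22.4%. The ob/ob-Veh value rests on the name of 1 cluster, which held 808 of 824 and 944 of 952 of these cells, hardly any ob/ob-Rosi cells, and stayed unnamed at the lower clustering resolution. APC-like clusters that met neither name are left out of both groups. The largest held 1018 and 547 cells in ob/ob-Veh against 13 and 1 in ob/ob-Rosi. The others held 215 and 225 against 11 and 0, and 66 and 37 against 54 and 61. The Progenitor-like and Preadipocyte-like shares therefore depend on how these clusters are named. Group 2 innate lymphoid (ILC2-like) cells numbered 192 and 140 against 6 and 25, and lymphatic endothelial (LEC-like) cells 37 and 64 against 3 and 0. The 0 of 10068 cells has a Wilson 95% interval reaching 0.0381%, which covers counting error only.

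When all kept cells of a library were summed, 1627 genes (10.3% of 15845 tested) rose and 1602 (10.1%) fell in the libraries labelled ob/ob-Rosi, 20.4% in all. For 67.5% of all genes the groups did not overlap, so with 2 libraries each a lack of overlap is common. Genes counted as called here and below passed an adjusted p of 0.05 over all genes tested in that class and a change of at least 1.1-fold, by edgeR's quasi-likelihood test on UMI counts summed per library. In such a sum, fewer cells of a type and less RNA per cell cannot be told apart. Scaling matters for the direction of small changes. Scaling by library size alone moved the median of all genes from −0.04 to −0.33 (log2) and the split from 1627 and 1602 to 862 and 2201. Without ob/ob-Rosi 2 there were 440 calls, without ob/ob-Veh 1 there were 1106 and without ob/ob-Veh 2 there were 1195.

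The genes that rose most by the naming rule were macrophage genes. Syngr1, a vesicle membrane protein, stood at 2.04 and 4.2 CPM (UMI counts scaled to a common library total) in ob/ob-Veh and 105 and 149 CPM in ob/ob-Rosi, a log2 change of 5.68 (SE 0.40, adjusted p = 0.000826). Atp6v0d2, a subunit of the proton pump that acidifies lysosomes, went from 5.95 and 10.8 CPM to 242 and 234 CPM (log2 change 5.15), and Trem2, on chromosome 17 at 48346401-48354147 (GRCm38), from 35.0 and 49.5 CPM to 930 and 1177 CPM (log2 change 4.95). Sult1e1, an estrogen sulfotransferase, fell from 704 and 538 CPM to 13.8 and 5.28 CPM (log2 change −5.78, adjusted p = 0.0012). Car3, a carbonic anhydrase abundant in adipocytes, changed by −4.48 and Ptgs2, the inducible cyclooxygenase, by −3.96. The naming rule admits only genes whose groups do not overlap, so the separation of the genes it gives, here and below, is a condition of their choice and not a result. Ptgs2 was not called without ob/ob-Rosi 2 (adjusted p = 0.0655). Pparg itself was at 14.3 and 24.9 CPM in ob/ob-Veh and 29.3 and 38.4 CPM in ob/ob-Rosi, a log2 change of 1.11 (SE 0.28, adjusted p = 0.0279).

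Macrophage-like cells held the most called genes of any class. Of 13448 genes tested, 2124 (15.8%) rose and 1956 (14.5%) fell, against a median log2 change over all genes of −0.01. That is 30.3% of the genes, and the groups did not overlap for 69.7%. Of the genes that rose, 623 (29.3%) had their highest level in Macrophage-like cells, and of those that fell 423 (21.6%) did. With library size alone that median was −0.23 and the split was 1450 higher and 2702 lower. The count was 1811 without ob/ob-Veh 1, 1754 without ob/ob-Veh 2 and 1824 without ob/ob-Rosi 2. Different clusters held the class in the 2 groups. In ob/ob-Veh most of its cells were PVM-like, and in ob/ob-Rosi most were LAM-like, so a change of level and a change of makeup within the class cannot be told apart. The largest LAM-like cluster was led by inflammatory genes, among them Cxcl2, Ccl3 and Tnf.

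All 20 genes of the lipid-associated macrophage list rose in Macrophage-like cells, with a median log2 change of 2.63, and they did so with each library left out in turn. Gpnmb, a transmembrane glycoprotein of lipid-laden macrophages (chromosome 6, 49036546-49070929, GRCm38), stood at 50.6 and 46.9 CPM in ob/ob-Veh and 1436 and 1515 CPM in ob/ob-Rosi. Its log2 change was 5.14 (SE 0.26, adjusted p = 2.93e-05). Trem2, a receptor for lipids and lipoproteins, stood at 71.7 and 110 CPM against 1332 and 1823 CPM (log2 change 4.35, SE 0.30, adjusted p = 6.14e-05). Both genes lay far above the ob/ob-Veh values in each ob/ob-Rosi library. The tetraspanin Cd9 changed by 3.88, the elastase Mmp12 by 3.77 and the secreted phosphoprotein Spp1 by 3.40. Apoe, the apolipoprotein that carries cholesterol out of macrophages, was already abundant at 8069 and 8838 CPM and reached 20710 and 15940 CPM (log2 change 1.33, adjusted p = 0.00272). The other genes the naming rule gave among those that rose were Syngr1 (log2 change 5.10), Ctsk, a collagen-degrading cathepsin (4.53), and Pcdh7, a protocadherin (4.34). Ctsk and Pcdh7 had their highest levels in APC-like cells.

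The fatty acid-handling genes that PPARγ controls moved in both directions in these macrophages. Fabp5, a fatty acid-binding protein, stood at 87.8 and 86.7 CPM in ob/ob-Veh and 1274 and 1328 CPM in ob/ob-Rosi (log2 change 4.12, SE 0.24, adjusted p = 4.22e-05). Fabp4 went from 170 and 315 CPM to 1390 and 1534 CPM (log2 change 2.83, adjusted p = 0.000357). These genes are also members of the lipid-associated list. Plin2, which coats lipid droplets, changed by 1.99 and Lpl, which releases fatty acids from lipoproteins, by 1.91. Pparg was at 7.67 and 9.24 CPM against 29.5 and 31.9 CPM, a log2 change of 2.08 (SE 0.24, adjusted p = 0.000549), with higher levels in EC-like cells than here. The scavenger receptor Cd36 missed the threshold, with 1204 and 1309 CPM against 2187 and 1298 CPM (log2 change 0.68, adjusted p = 0.0764). Pdk4, the kinase that turns off pyruvate dehydrogenase, fell from 31.0 and 20.4 CPM to 1.75 and 1.06 CPM (log2 change −4.01, adjusted p = 0.000371). Over the PPAR target list, 8 of 30 tested genes rose and 6 fell, with a median of −0.20, where 15.8% of all genes rose and 14.5% fell. Among those that fell were Pck1, an enzyme of glyceroneogenesis, Sult1e1, Pdk4, Vldlr and Txnip. Sult1e1 had its highest level in APC-like cells. Of 18 genes of fatty acid oxidation, 7 rose and none fell (median 0.65), with Acads at 1.32 and Hadha at 1.26. That count was 1 without ob/ob-Veh 2 and 3 without ob/ob-Veh 1 or ob/ob-Rosi 2.

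**Figure D2:**
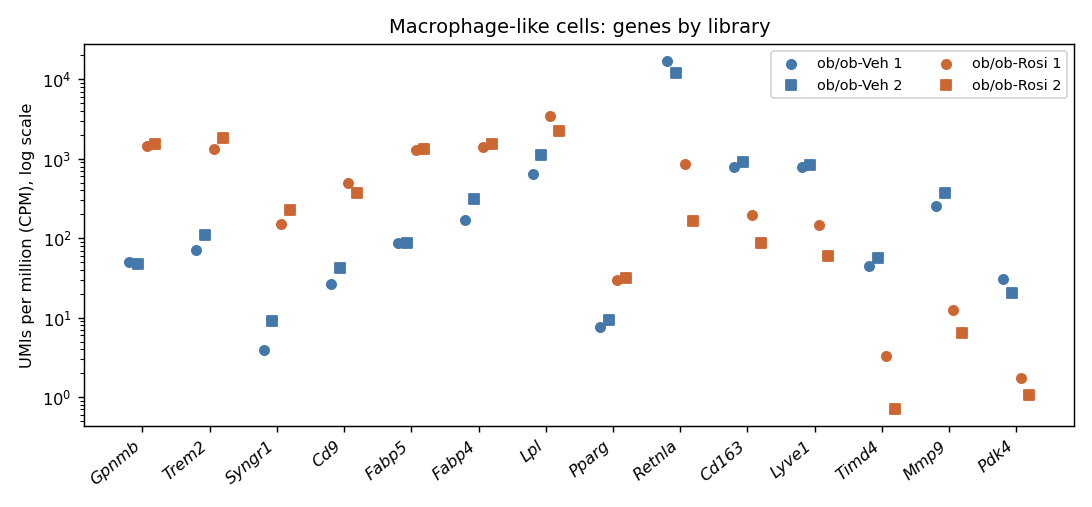
Levels of 14 genes in Macrophage-like cells, in CPM on a log axis, 1 point per library with circles for replicate 1 and squares for replicate 2, blue for ob/ob-Veh and orange for ob/ob-Rosi. Gpnmb, Trem2, Fabp5 and Fabp4 are higher and Retnla, Cd163, Lyve1, Timd4, Mmp9 and Pdk4 are lower in both ob/ob-Rosi libraries than in both ob/ob-Veh libraries.

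Perivascular macrophage genes fell in the same class. Of 16 tested, 12 fell and none rose, with a median log2 change of −2.02. Retnla, a secreted product of alternatively activated macrophages, was among the most abundant messages of ob/ob-Veh macrophages at 16860 and 12160 CPM and stood at 857 and 166 CPM in ob/ob-Rosi (log2 change −4.64, SE 0.71, adjusted p = 0.00207). The spread between the ob/ob-Rosi libraries was wide, but neither came near the ob/ob-Veh values. Timd4, a phosphatidylserine receptor of resident macrophages, stood at 44.2 and 56.5 CPM against 3.32 and 0.718 CPM (log2 change −4.50). Lyve1 changed by −2.77, Cd163 by −2.38 and the mannose receptor Mrc1 by −1.27. Stab1 (0.04) and Selenop (0.09) had fold changes near 0 and were not called. The remaining genes named by the rule were Il6, at 115 and 119 CPM against 3.64 and 1.75 CPM (log2 change −5.26, adjusted p = 6.14e-05), the gelatinase Mmp9 (−4.83) and the phospholipase Pla2g2d (−4.67). Il6 had its highest level in the APC-like cells of ob/ob-Veh and not in macrophages.

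Lysosomal genes were called in the higher direction. In Macrophage-like cells 15 of 30 rose and none fell (median 0.66), and in the whole library 22 of 30 rose and none fell (median 1.26, against −0.04 for all genes). By library size alone 13 rose and 1 fell in Macrophage-like cells, and 19 rose in the whole library. Whole-library counts were 13 without ob/ob-Veh 1, 13 without ob/ob-Veh 2 and 14 without ob/ob-Rosi 2. The aspartic protease Ctsd stood at 1287 and 1259 CPM in ob/ob-Veh macrophages and 3765 and 5072 CPM in ob/ob-Rosi macrophages (log2 change 2.02, adjusted p = 0.001). Ctsl, a cysteine protease, changed by 3.06 and Lipa, the acid lipase that frees cholesterol and fatty acids in the lysosome, by 2.16. The membrane proteins Lamp1 (0.56) and Lamp2 (−0.29) and the progranulin gene Grn (0.32) were not called.

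Many lysosomal genes share a promoter element, the CLEAR core TCACGTGA, which is read by the TFEB family of transcription factors. It reads the same on both strands. In RefSeq promoters (GRCm38.p6, 250 bases before to 50 after the start), 320 of 32851 (0.974%) held it. Of the 30 listed genes, 22 had a promoter in that table, 26 promoters in all, and 5 of those held it. Of the 18 listed genes with a promoter that rose in the whole library, 4 held it. The motif was chosen with the values known, and a match is a description of the letters only. The sites of these 4 genes are shown with the motif in capitals, because they show the shared letters in genes that rose, written 5′ to 3′ on the gene's strand with 9 bases on each side. The first base of the motif lies 99 bases before the start in Ctsd (promoter chr7:142387778-142388077, minus strand), 13 before and 4 after it in Ctsa (chr2:164833523-164833822, plus), 228 and 195 before it in Gla (chrX:134600956-134601255, minus) and 132 before it in Atp6v1a (chr16:44139210-44139509, minus).
Ctsd: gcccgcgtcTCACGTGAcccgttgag
Ctsa, upstream site: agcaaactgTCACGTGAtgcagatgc
Ctsa, downstream site: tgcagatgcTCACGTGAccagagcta
Gla, distal site: agcgattgaTCACGTGAgcatctacg
Gla, proximal site: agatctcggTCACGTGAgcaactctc
Atp6v1a: ttttttaaaTCACGTGAtaggcttaa

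Ctsd, Ctsa and Atp6v1a also rose in Macrophage-like cells, where Ctsa went from 303 and 383 CPM to 562 and 729 CPM (log2 change 1.14) and Atp6v1a from 169 and 226 CPM to 313 and 260 CPM (log2 change 0.76). Gla, the alpha-galactosidase, was not called there (log2 change 0.44, adjusted p = 0.19). Mcoln1, the lysosomal calcium channel, holds the motif as well and was not called in the whole library or in Macrophage-like cells (log2 change in the latter −0.52). For the direct repeat bound by PPARγ, AGGTCA followed by any 1 base and AGGTCA again, on either strand, 13 of 32851 promoters (0.0396%) and 0 of 30 promoters of the PPAR target list held a match, in windows too short to include distal sites.

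Some genes of energy metabolism, translation and division rose in Macrophage-like cells too. Of 74 nuclear-encoded oxidative phosphorylation genes, 54 rose and none fell (median 0.91), and of 82 ribosomal protein genes 42 rose and none fell (median 0.70). Glycolysis genes rose in 9 of 17 with 1 falling (median 0.94), Pkm at 1.93 and Gapdh at 1.65. These moderate changes rest on the scaling and on single libraries. With library size alone 36 oxidative phosphorylation genes and 25 ribosomal protein genes rose. The counts were 11 and 7 without ob/ob-Veh 1, 18 and 10 without ob/ob-Veh 2, and 32 and 17 without ob/ob-Rosi 2. Of 13 mitochondrially encoded subunits, none rose and 1 fell (median −0.24). Cell cycle genes rose in 16 of 23 (median 1.77). Ccnb1, the mitotic cyclin, was at 4.30 and 1.98 CPM in ob/ob-Veh and 18.6 and 22.6 CPM in ob/ob-Rosi (log2 change 2.92, adjusted p = 0.00119), and Mki67 changed by 1.42. One LAM-like cluster was led by cycling genes.

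Several lists of inflammatory, interferon and antigen presentation genes had more members lower than higher in Macrophage-like cells, and others were mixed. Of 10 genes of classical activation 2 rose, the chemokines Ccl3 (1.98) and Ccl4 (1.69), and 2 fell (median −0.02), and of 22 chemokines 4 rose and 6 fell (median −0.35). Over all genes of this class 15.8% rose and 14.5% fell. The list of interferon-stimulated genes had 11 of 20 lower and none higher (median −1.26), with Cxcl10, a chemokine for T cells, at 88.2 and 65.2 CPM against 14.2 and 6.78 CPM (log2 change −2.68, adjusted p = 0.00164). It had 5 lower without ob/ob-Veh 1, ob/ob-Veh 2 or ob/ob-Rosi 2. Of 21 TNF and NF-kB response genes, 10 fell and none rose (median −0.72). Of 10 MHC class II genes, 5 fell (median −0.74), among them H2-Ab1 at 4131 and 3713 CPM against 1956 and 2095 CPM (log2 change −0.74, adjusted p = 0.0337). Only 2 of those 5 passed when the WT-Veh libraries were not in the fit. Immediate early and heat shock genes, which are also induced when tissue is digested, fell in 13 of 17 (median −1.38). Egr1 stood at 3746 and 3709 CPM against 800 and 381 CPM (log2 change −2.45, adjusted p = 0.00137). The summed level of these 17 genes was 28220 and 24490 CPM in ob/ob-Veh macrophages and 8784 and 8110 CPM in ob/ob-Rosi macrophages, and 19940 and 16890 against 10710 and 7536 CPM in APC-like cells. Their part in the inflammatory changes was not tested.

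An NF-kB site, GGGA followed by any base and TTTCC on either strand, was found in 135 of 32851 promoters (0.411%) and in 5 of 18 promoters of the TNF and NF-kB list. Of the genes of that list that fell in Macrophage-like cells, 8 had a promoter in the table and 2 of them held the site. They are shown because Il6 came first among the genes that fell by the naming rule, although its highest level was in APC-like cells. The site lies 44 bases before the start of Il6 (promoter chr5:30012864-30013163, plus strand, GRCm38.p6) and 154 bases before that of Csf1, the macrophage growth factor, where it is on the opposite strand (chr3:107760420-107760719).
Il6: atcaaatgtGGGATTTTCCcatgagtct
Csf1: tggcccctaGGGACTTTCCctcaaggcc

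PVM-like cells, compared on their own, differed between the conditions. Of 11310 genes tested, 244 (2.16%) rose and 144 (1.27%) fell, 3.43% in all, with a median of 0.01. The groups did not overlap for 56% of genes. With library size alone the split was 135 and 185. The count moved with each library, from 31 without ob/ob-Rosi 2 and 75 without ob/ob-Veh 1 to 108 without ob/ob-Veh 2, 161 and 167 without WT-Veh 1 or 2, and 725 without ob/ob-Rosi 1. Nearly all PVM-like cells of ob/ob-Veh 1 (1853 of 1903) fell in a cluster led by Mmp9, Pla2g2d and Retnla, and most of those of ob/ob-Rosi 1 (1370 of 1403) in another. Of the lipid-associated list, 14 of 20 genes rose and none fell (median 1.63). Gpnmb was at 3.84 and 5.75 CPM in ob/ob-Veh PVM-like cells and 122 and 226 CPM in ob/ob-Rosi PVM-like cells (log2 change 5.30). Fabp5 changed by 3.94 and Syngr1 by 4.36. MHC class II genes fell in 5 of 9 (median −1.49), with H2-Aa at 3616 and 4716 CPM against 979 and 1185 CPM (log2 change −1.81, adjusted p = 0.0131). Without ob/ob-Rosi 2 none of the MHC class II genes was called.

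Several of the genes that define perivascular macrophages had served to choose the PVM-like cells. Timd4, Mgl2 and Cd209f fell, 3 of 16 (median −0.14), where 1.27% of all genes fell. Cd163 had a log2 change of −0.84 (adjusted p = 0.103), Lyve1 of −0.63 (adjusted p = 0.268) and Mrc1 of −0.18 (adjusted p = 0.78). Mmp9 fell by 3.32 on the log2 scale, from 416 and 465 CPM to 50 and 30.5 CPM. Retnla was at 12830 and 9972 CPM against 1937 and 431 CPM (log2 change −3.16, adjusted p = 0.042), and its call was lost under 6 alternatives, including without ob/ob-Rosi 2 (adjusted p = 0.226). The third gene that the rule gave among those that fell was Igkc, an immunoglobulin light chain made by B-lineage cells.

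In APC-like cells matrix genes were among those that rose. Of 13097 genes tested, 607 (4.63%) rose and 470 (3.59%) fell, 8.22% in all, with a median of −0.01. The groups did not overlap for 51.8% of genes. The count was 390 without ob/ob-Veh 1, 678 without ob/ob-Veh 2, 2246 without ob/ob-Rosi 1 and 304 without ob/ob-Rosi 2. APC-like cells of the ob/ob-Veh and ob/ob-Rosi libraries were held mostly by different clusters. Immune RNA was present in most of these cells and differed between the groups. UMIs of at least 2 of 8 immune genes were found in 61.0% and 80.3% of APC-like cells in ob/ob-Veh and 94.0% and 96.1% in ob/ob-Rosi. Without such cells 136 genes rose and 79 fell of 7723 tested, with 150 and 99 ob/ob-Rosi cells left. Only 177 of the 607 genes that rose (29.2%) had their highest level in APC-like cells, whereas 234 of the 470 that fell (49.8%) did.

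Among extracellular matrix genes, 17 of 32 rose and none fell (median 1.11). Without cells holding immune RNA 10 rose (median 0.94), and the count was 6 without ob/ob-Veh 1, 10 without ob/ob-Veh 2 and 8 without ob/ob-Rosi 2. Timp1, an inhibitor of matrix metalloproteases (chromosome X, 20870166-20874735, GRCm38), stood at 34.2 and 27.3 CPM in ob/ob-Veh and 491 and 1020 CPM in ob/ob-Rosi (log2 change 4.65, SE 0.49, adjusted p = 0.000527). Mmp3, the stromelysin, stood at 9.22 and 4.62 CPM against 198 and 255 CPM (log2 change 5.02, SE 0.45, adjusted p = 0.000244). The matricellular protein Tnc was at 0.233 and 0.237 CPM against 46.9 and 48.4 CPM (log2 change 7.63, adjusted p = 8.81e-05). Both ob/ob-Rosi libraries were the high ones for each of these genes. Fibrillar collagens had smaller fold changes. Col3a1 went from 4651 and 5300 CPM to 12640 and 11910 CPM (log2 change 1.35, adjusted p = 0.00769) and Col1a1 from 1532 and 1838 CPM to 3462 and 3823 CPM (log2 change 1.16, adjusted p = 0.0165), both also being markers of the class. Col1a2 (0.58) and Fn1 (−0.58) were not called. Basement membrane and beaded-filament collagens rose as well, Col4a1 by 1.24 and Col6a1 by 1.38, as did the matricellular protein Postn (2.37) and the proteoglycan Bgn (2.17).

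Mgp, an inhibitor of matrix calcification (chromosome 6, 136872435-136875823), was abundant among the messages that rose, with 424 and 579 CPM against 10160 and 10410 CPM (log2 change 4.41, SE 0.28, adjusted p = 5.54e-05). Cyp4b1, a fatty acid hydroxylase whose highest level was in EC-like cells, changed by 5.59, and Ndufa4l2, a mitochondrial protein induced in low oxygen, by 4.89. Sult1e1, which inactivates estrogens (chromosome 5, 87575969-87591594), came first among the genes that fell, from 1306 and 1220 CPM to 55.2 and 22.6 CPM (log2 change −5.00, SE 0.49, adjusted p = 0.000318). Chst1, a keratan sulfotransferase, changed by −4.36, the sphingomyelinase Smpd3 by −3.70 and Igkc by −3.70, the last having its highest level in B-like cells. Smpd3 was not called without ob/ob-Rosi 2 (adjusted p = 0.102).

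**Figure D3:**
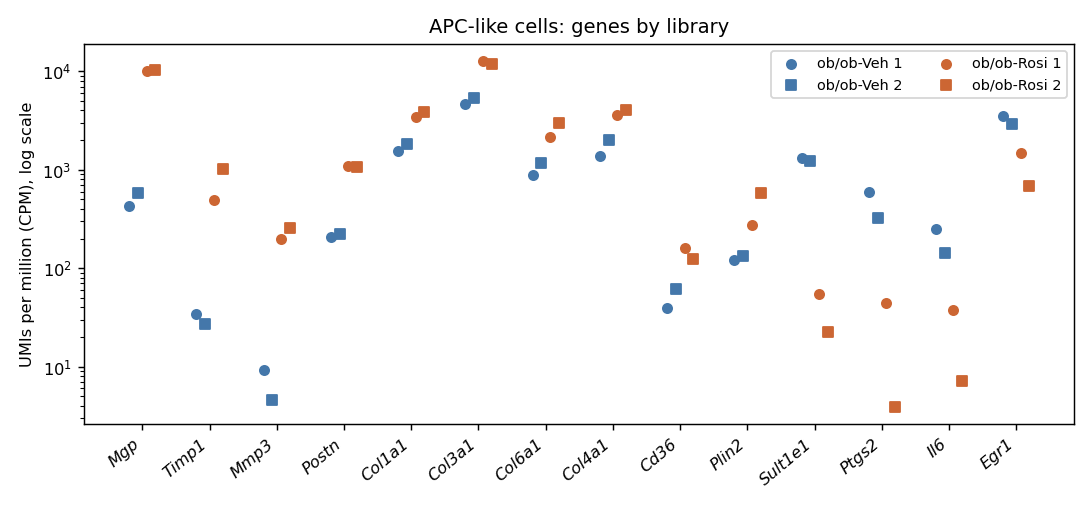
Levels of 14 genes in APC-like cells, in CPM on a log axis, 1 point per library with circles for replicate 1 and squares for replicate 2, blue for ob/ob-Veh and orange for ob/ob-Rosi. Mgp, Timp1, Mmp3 and the collagens shown are higher in both ob/ob-Rosi libraries, and Sult1e1, Ptgs2, Il6 and Egr1 are lower in both.

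PPAR target genes went both ways in APC-like cells. Of 28 tested, 4 rose (Fabp5, Plin2, Cd36 and Ucp2) and 2 fell (Sult1e1 and Vldlr), with a median of 0.24, where 4.63% of all genes rose and 3.59% fell. Cd36, which imports fatty acids, stood at 39.4 and 61.1 CPM in ob/ob-Veh and 160 and 124 CPM in ob/ob-Rosi (log2 change 1.55, SE 0.31, adjusted p = 0.0123). Plin2 stood at 122 and 134 CPM against 277 and 580 CPM (log2 change 1.79, adjusted p = 0.0129). In both genes each ob/ob-Rosi library was above each ob/ob-Veh library. Fabp4 had a log2 change of 1.00 (adjusted p = 0.112), Lpl of 1.01 (adjusted p = 0.0554) and Pparg of 1.11 (5.05 and 8.29 CPM against 8.15 and 19.0 CPM, adjusted p = 0.132), and none was called. Without ob/ob-Veh 1 the count of list members that rose was 1, and without cells holding immune RNA it was 2. Of 17 adipogenic transcription factors none rose, and Ebf2 (−1.87, adjusted p = 0.0125) and Cebpd (−1.32, adjusted p = 0.0184) fell.

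Inflammatory genes of APC-like cells were called in part. Of 21 TNF and NF-kB response genes, 8 fell and none rose (median −0.96). Ptgs2 stood at 590 and 321 CPM in ob/ob-Veh and 44.1 and 3.92 CPM in ob/ob-Rosi (log2 change −4.28, SE 0.91, adjusted p = 0.0164). The cytokine Il6 stood at 249 and 144 CPM against 37.5 and 7.22 CPM (log2 change −3.16, adjusted p = 0.0225). Each was lower in both ob/ob-Rosi libraries, which differed widely from each other, and Ptgs2 was not called without ob/ob-Rosi 2 (adjusted p = 0.0642). The list count was 2 without that library and 4 without ob/ob-Veh 1 or without cells holding immune RNA. Of 17 immediate early and heat shock genes, 6 fell (median −1.03), Egr1 by −1.56. Chemokines went both ways, with 7 of 24 higher and 2 lower. Cxcl14, a chemokine made by APCs, changed by 3.00 and Cx3cl1, the ligand of the monocyte receptor Cx3cr1, by 5.67. Of 10 angiogenic genes, 5 fell, among them Vegfa (−1.09) and Angpt1 (−1.55), and 3 rose, all of which had their highest level in EC-like cells.

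APC-like cells were also tested as Progenitor-like and Preadipocyte-like cells. The groups of Progenitor-like cells sat in different clusters, with 805 and 1166 of the 1977 cells of ob/ob-Veh 1 in a pair of clusters that held few ob/ob-Rosi cells, and 360 of 379 and 183 of 186 ob/ob-Rosi cells in another, whose leading genes included Myoc and Fxyd6. Progenitor-like cells had 272 genes higher (2.85% of 9530) and 108 lower (1.13%), 3.99% in all, with 143 calls without ob/ob-Rosi 2, 196 without ob/ob-Veh 1 and 810 without ob/ob-Rosi 1. The TNF and NF-kB genes fell in 11 of 20 and rose in none (median −2.13, against 0.00 for all genes), and 5 fell without ob/ob-Rosi 2. Il6 was at 149 and 104 CPM against 9.73 and 0 CPM, and Ptgs2 at 769 and 560 CPM against 71.0 and 16.6 CPM (log2 change −3.83). DESeq2 did not call Il6 (adjusted p = 0.419). Of 21 PPAR targets 6 rose and 1 fell, with Fabp4 at 111 and 312 CPM against 593 and 781 CPM (log2 change 1.80, adjusted p = 0.00786). Among the genes named by rule, Myoc, a secreted glycoprotein of connective tissue, changed by 5.73 and the ion pump regulator Fxyd6 by 5.90. Igkc was the remaining gene among those that fell. The progenitor markers Pi16 (0.40) and Dpp4 (−0.30) were not called.

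Preadipocyte-like cells had 679 genes higher (5.5% of 12338) and 405 lower (3.28%), 8.79% in all, and 503 and 448 with library size alone. There were 433 calls without ob/ob-Veh 1, 463 without ob/ob-Veh 2, 590 without ob/ob-Rosi 2, 2139 without ob/ob-Rosi 1 and 294 without cells holding immune RNA. Matrix genes rose in 19 of 32 (median 1.16) and in 14 without cells holding immune RNA. Tnc was at 0.739 and 0.162 CPM against 54.9 and 51.5 CPM (log2 change 7.01), and the collagen Col8a1 at 1.85 and 5.18 CPM against 92.2 and 175 CPM (log2 change 5.37). Clic6, an intracellular chloride channel protein, went from 61.4 and 79.8 CPM to 0.655 and 0.174 CPM (log2 change −7.44), and Sult1e1 from 2327 and 1723 CPM to 48.2 and 14.7 CPM (log2 change −5.91). The first pair was high in both ob/ob-Rosi libraries and the second pair in both ob/ob-Veh libraries, as the rule required. Clic6 and Sult1e1 were leading genes of the cluster that held 808 of 824 and 944 of 952 ob/ob-Veh cells of this class. The ob/ob-Rosi libraries also differed, with 1367 of 2023 and 87 of 2257 cells in 1 cluster and 56 and 1217 in another. A change of level and a change of makeup cannot be told apart here. Of 21 TNF and NF-kB genes 5 rose and 1 fell (median 0.89), and the difference from Progenitor-like cells was not tested. With cells assigned to the classes singly rather than by cluster, 2 rose and 7 fell (median −0.88). Immediate early and heat shock genes moved with the list in this class, with 5 of 17 higher and 1 lower (median 0.32) and a summed level of 6410 and 8677 CPM against 11000 and 7745 CPM, and their part was not tested. The TNF and NF-kB genes that rose were Icam1, Cxcl1, Cxcl2, Ier3 and Has1, and Icam1 was also a marker used to name these cells. Only 1 gene of that list rose without ob/ob-Veh 1. Cyp4b1 (5.50) was the third named gene that rose and Car3 the third that fell.

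In EC-like cells adipocyte transcripts were among the genes that fell. Of 10499 genes tested, 320 (3.05%) rose and 226 (2.15%) fell, 5.2% in all, with a median of −0.02. The groups did not overlap for 50.4% of genes. The count was 233 without ob/ob-Rosi 2, 263 without ob/ob-Veh 1, 268 without ob/ob-Veh 2 and 1328 without ob/ob-Rosi 1. Cells that held immune RNA were 68.5% and 82.4% of EC-like cells in ob/ob-Veh and 95% and 96.2% in ob/ob-Rosi. Without them the count was 7 higher and 7 lower of 1215 genes tested, with 67, 84, 23 and 30 cells left. Most genes were thus not tested in that fit. Only 26 of the 320 genes that rose (8.13%) had their highest level in EC-like cells and 160 had it in Macrophage-like cells, while 92 of the 226 that fell (40.7%) were highest in EC-like cells.

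Cfd, the adipocyte serine protease adipsin, stood at 661 and 372 CPM in EC-like cells of ob/ob-Veh and 1.99 and 1.68 CPM in those of ob/ob-Rosi (log2 change −8.07, SE 0.48, adjusted p = 4.46e-07). Car3 stood at 784 and 614 CPM against 7.29 and 7.28 CPM (log2 change −6.51). Adipoq, the adipocyte hormone adiponectin, stood at 72.4 and 35.3 CPM against 0.663 and 2.52 CPM (log2 change −4.68, adjusted p = 0.000278). Each was high in both ob/ob-Veh libraries, as the rule required. Retn changed by −4.91 and Sult1e1 by −6.60. Of 13 adipocyte genes 7 fell and none rose (median −2.11), and their summed level in EC-like cells was 2202 and 1913 CPM against 420 and 1074 CPM. It was 96.8 and 136 CPM against 83.2 and 130 CPM in APC-like cells. Whether RNA released by adipocytes contributed to the EC-like values was not tested.

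PPAR target genes in EC-like cells were called mostly lower. Of 28 tested, 12 fell, Fabp5 alone rose (log2 change 0.92, adjusted p = 0.0398), and the median was −0.67. Adipoq, Cidec, Plin4 and Pck1 among the 12 are adipocyte genes. Also among the 12 was Aqp7, a glycerol channel that the study lists with fat-specific genes, at 691 and 810 CPM against 219 and 194 CPM (log2 change −1.81, adjusted p = 0.000834). Rbp7, a retinol-binding protein and a leading gene of the EC-like clusters, was at 2162 and 1484 CPM against 673 and 738 CPM (log2 change −1.32, adjusted p = 0.0133). Both were separate between the groups. The count of those that fell was 7 without ob/ob-Veh 1 and 8 without ob/ob-Rosi 2, and 1 of 16 without cells holding immune RNA. The main genes of endothelial fatty acid transfer were not called. Fabp4, the most abundant at 50970 and 60110 CPM against 40490 and 52620 CPM, had a log2 change of −0.19 (adjusted p = 0.669), Cd36 of −0.69 (adjusted p = 0.138) and Gpihbp1, the anchor of lipoprotein lipase on capillaries, of 0.54 (adjusted p = 0.425). Pparg was at 291 and 189 CPM against 133 and 160 CPM (log2 change −0.65, adjusted p = 0.208). By the naming rule Tmem252, a membrane protein, came first among the genes that rose, at 28.3 and 15.1 CPM against 425 and 809 CPM (log2 change 4.96, adjusted p = 2.04e-05). Lrg1, a secreted glycoprotein of activated vessels, changed by 2.31. Lgals3, Adam8, Ctsk and Cd300c2 also rose and had their highest levels in other classes.

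The effects in APC-like cells were compared with those in the other classes in a single model. Against Macrophage-like cells, 1087 genes (7.5% of 14499) had a more positive effect in APC-like cells and 1687 (11.6%) a more negative one. That balance turned with the scaling, to 1757 and 674 by library size alone. DESeq2, which differs in the model as well, gave 1310 and 726. Against EC-like cells the numbers were 322 (2.48% of 13004) and 261 (2.01%), and 288 and 184 by library size alone. The effect on Timp1 was larger in APC-like than in Macrophage-like cells by 2.51 log2 units (SE 0.26, adjusted p = 0.000281). Pdk4 fell in Macrophage-like cells and had a log2 change of −0.65 in APC-like cells (adjusted p = 0.223), a difference of 3.30. The APC-like effect minus the Macrophage-like effect was −1.99 for Fabp4 (adjusted p = 0.000784) and −3.84 for Gpnmb (adjusted p = 4.47e-05). For Plin2 the difference between these classes did not pass (−0.38, adjusted p = 0.286). Compared with EC-like cells, the APC-like effect was more positive for Cd36 by 2.25 (adjusted p = 2.61e-05), for Fabp5 by 1.54, for Fabp4 by 1.14 and for Pparg by 1.65 (adjusted p = 0.00873).

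**Figure D4:**
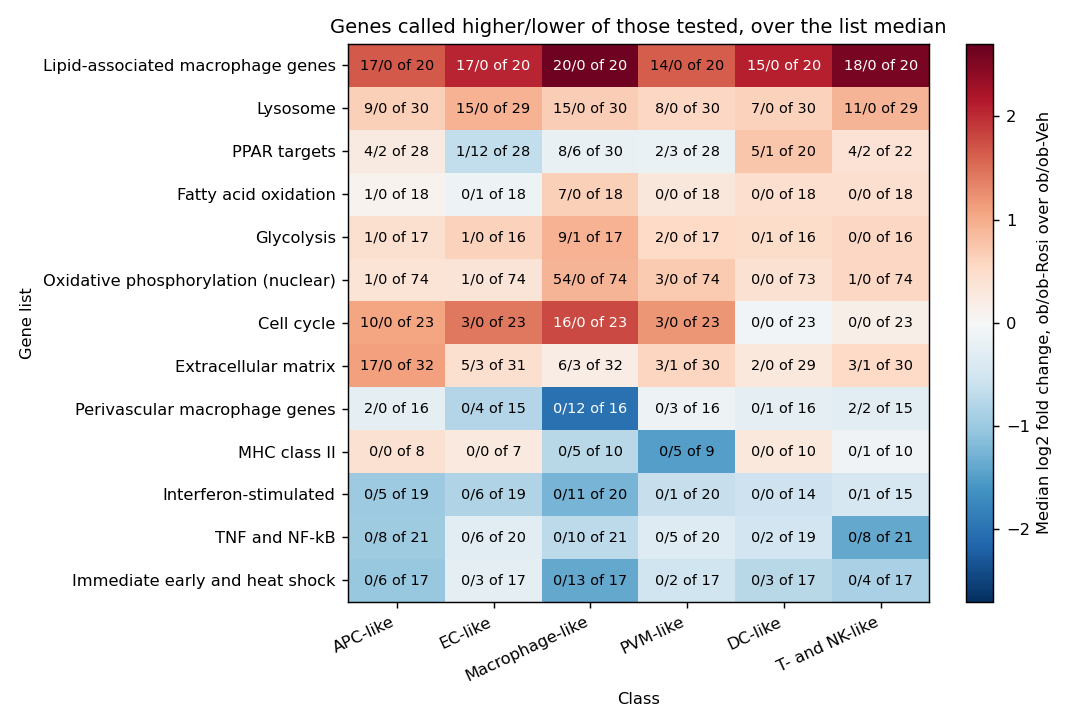
Median log2 change, ob/ob-Rosi minus ob/ob-Veh, of 13 gene lists in 6 cell classes, as colour, with the numbers of members that rose and fell of those tested written in each cell. The lipid-associated macrophage list is positive in each class shown, matrix genes rose in 17 of 32 in APC-like cells, and PPAR targets fell in 12 of 28 in EC-like cells.

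Smaller classes gave fewer calls. Mesothelial-like cells had 78 genes higher (1.05% of 7430) and 26 lower (0.35%), 1.4% in all, 65 and 48 with library size alone, and 9, 28 and 60 calls without ob/ob-Rosi 2, ob/ob-Veh 1 and ob/ob-Veh 2. Bmp3, a bone morphogenetic protein, was at 10.3 and 12.7 CPM in ob/ob-Veh and 124 and 90.4 CPM in ob/ob-Rosi (log2 change 3.34, adjusted p = 0.00147). The rule also gave Ltbp2, Hal, Ctla2a and Ccl8 among those that rose and Igkc, Egr1, Lyz1, Ces1d and Mark1 among those that fell. Of these 10, Ccl8, Ltbp2, Bmp3, Igkc, Egr1, Lyz1, Ces1d and Mark1 each lost the call under at least 1 alternative. Ctla2a had its highest level in EC-like cells, Ccl8, Egr1 and Lyz1 in Macrophage-like cells and Igkc in B-like cells. Of the 78 genes that rose, 25 were highest in Mesothelial-like cells, and of the 26 that fell 13 were. Cells that held immune RNA were 71.6% and 83.9% of Mesothelial-like cells in ob/ob-Veh and 95% and 100% in ob/ob-Rosi.

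DC-like cells had 73 genes higher (0.791% of 9223) and 53 lower (0.575%), 1.37% in all, with 34 calls without ob/ob-Veh 1, 43 without ob/ob-Rosi 2 and 672 without ob/ob-Rosi 1. None of the 73 had its highest level in DC-like cells, and 46 had it in Macrophage-like cells. Of 20 PPAR targets, Lpl, Fabp4, Plin2, Pparg and Cd36 rose and Sult1e1 fell (median 0.75, against 0.01 for all genes). Lpl was at 80.7 and 168 CPM against 754 and 466 CPM (log2 change 2.40, adjusted p = 0.00273) and Pparg at 7.14 and 10.5 CPM against 28.9 and 23.3 CPM (log2 change 1.67, adjusted p = 0.0437). By library size alone 2 of them rose, and without ob/ob-Veh 1 none did. Ccl17, a chemokine of dendritic cells, differed between the ob/ob-Veh libraries, with 587 and 71.5 CPM against 44.4 and 46.6 CPM, and its call (log2 change −2.78, adjusted p = 0.041) was lost without ob/ob-Veh 1 (log2 change −0.52, adjusted p = 0.785). The other named genes were Mgp, Pld3 and Ctsd (2.61), which rose, and Lsmem1 (−3.68) and Igkc, which fell. Igkc lost its call under 2 of 15 alternatives, DESeq2 among them, Lsmem1 at resolution 0.5 and Pld3 with cells thinned to 700 UMIs.

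T- and NK-like cells, with ILC2-like cells counted among them, had 178 genes higher (1.73% of 10299) and 197 lower (1.91%), 3.64% in all, and 117 and 232 with library size alone. There were 47 calls without ob/ob-Veh 1, 80 without ob/ob-Veh 2, 80 without ob/ob-Rosi 2 and 1396 without ob/ob-Rosi 1. Only 10 of the 178 genes that rose were highest in this class and 105 were highest in Macrophage-like cells. Of 23 T and NK effector and regulatory genes, Il5, Il2ra and Areg fell and none rose (median −0.04), while ILC2-like cells went from 192 and 140 to 6 and 25. Il13, another cytokine of ILC2 cells, was not called (log2 change −1.97, adjusted p = 0.118). Il1rl1, the receptor for interleukin-33, was at 479 and 386 CPM in ob/ob-Veh and 48.3 and 22.1 CPM in ob/ob-Rosi (log2 change −3.73). Il5, which sustains eosinophils, was at 55.1 and 42.0 CPM, or 113 and 61 UMIs, in ob/ob-Veh and had 0 UMIs in both ob/ob-Rosi libraries. The growth factor Csf2 was at 129 and 152 CPM against 3.22 and 1.66 CPM (log2 change −5.98, adjusted p = 2.44e-05). All were low in both ob/ob-Rosi libraries. For 46% of all genes of this class the groups did not overlap, and Csf2 was named by a rule that requires it. Areg (−2.28, adjusted p = 0.0314) and Il2ra (−2.75, adjusted p = 0.000783) fell too. Il5, Il13, Areg and Il1rl1 were among the markers that named the ILC2-like cells. Il2ra, Il1rl1, Csf2 and Areg were leading genes of the ILC2-like cluster. With fewer of those cells in the class, a change of level and a change of makeup cannot be told apart for these genes. Cytotoxic genes were not called, with Gzma at 1.15 (adjusted p = 0.118) and Prf1 at 0.11 (adjusted p = 0.879). The named genes Clec4d, Timp1 and Mgp rose, and Sult1e1 and Tnfaip6 fell. Tnfaip6 lost its call under 5 of 13 alternatives, DESeq2 and the fits without ob/ob-Veh 1 (adjusted p = 0.355) and ob/ob-Rosi 2 (adjusted p = 0.276) among them, and Timp1 with cells assigned singly.

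B-like cells, 32 to 99 per library, had 26 genes higher (0.615% of 4226) and 1 lower (0.0237%), 0.639% in all, with 14 calls without ob/ob-Veh 1, 16 without ob/ob-Rosi 2, 42 and 55 without WT-Veh 1 or 2 and 63 without ob/ob-Veh 2. Of the 26, 14 had their highest level in Macrophage-like cells and 10 in APC-like cells. Mgp, a stromal message, was at 15.3 and 73.3 CPM in ob/ob-Veh and 2656 and 1345 CPM in ob/ob-Rosi. Clec4d, Pcolce and Mgp were the named genes that rose, and Nfkbiz was the gene that fell. Nfkbiz lost its call under 6 of 14 alternatives, among them DESeq2, Clec4d under 3 of 12 and Pcolce under 3 of 14. Without ob/ob-Rosi 2 neither Nfkbiz (adjusted p = 0.512) nor Pcolce (adjusted p = 0.457) was called, and without ob/ob-Veh 1 or ob/ob-Rosi 1 Clec4d was not (highest adjusted p = 0.283).

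Macrophage messages were measured in every class, and this bears on each rise of a macrophage gene outside the macrophages. The summed level of the 9 LAM-like markers was 974 and 936 CPM in ob/ob-Veh macrophages and 7568 and 8459 CPM in ob/ob-Rosi macrophages. It was 412 and 532 against 1367 and 1749 CPM in APC-like cells, 1463 and 1196 against 3160 and 3440 CPM in EC-like cells, and 353 and 368 against 2435 and 2604 CPM in T- and NK-like cells. None of the 9 was at 0 in all libraries of these classes. Of the lipid-associated list, 17 of 20 genes rose in APC-like cells (median 1.65), 17 in EC-like cells, 15 in DC-like cells and 18 in T- and NK-like cells. Without ob/ob-Veh 1 these counts were 8, 12, 6 and 7. Trem2, which lymphocytes and stromal cells are not known for, was at 2.18 and 3.97 CPM against 124 and 151 CPM in APC-like cells (log2 change 5.56). The 10 macrophage markers summed to 216 and 288 CPM against 1011 and 1114 CPM in APC-like cells and 1536 and 1075 against 3600 and 3434 CPM in EC-like cells. Without cells holding immune RNA, 10 lipid-associated genes rose in APC-like cells and 4 in EC-like cells. Without doublets 17 rose in APC-like, 13 in EC-like, 15 in DC-like and 15 in T- and NK-like cells, and all calls went from 546 to 314 in EC-like and from 375 to 121 in T- and NK-like cells. The part of free macrophage RNA was not tested further.

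**Figure D5:**
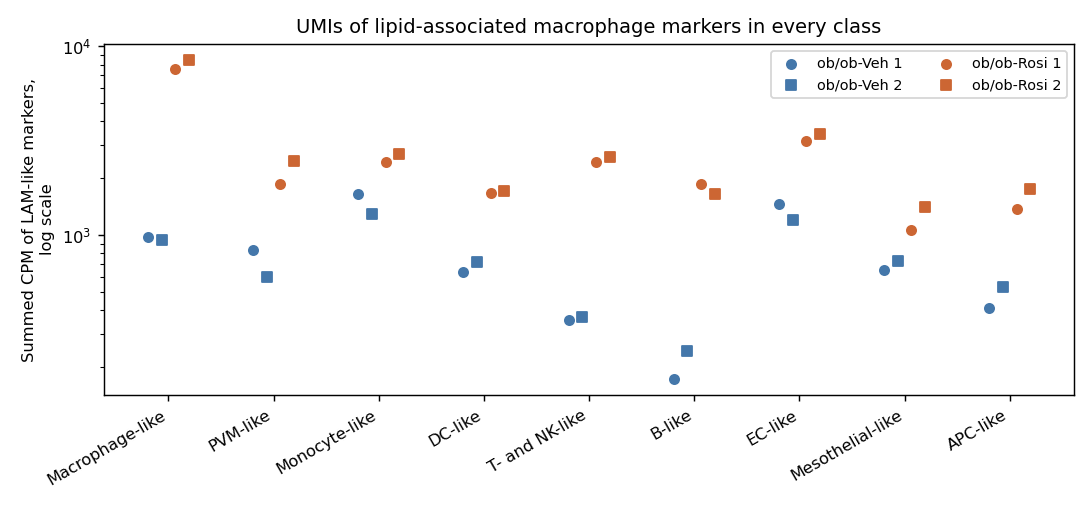
Summed level of the 9 LAM-like markers in 9 cell classes, in CPM on a log axis, 1 point per library with circles for replicate 1 and squares for replicate 2, blue for ob/ob-Veh and orange for ob/ob-Rosi. The sum is highest in ob/ob-Rosi macrophages, at 7568 and 8459 CPM, and is higher in ob/ob-Rosi than in ob/ob-Veh for APC-like, EC-like, DC-like and T- and NK-like cells as well.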

How the data were processed

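Single-cell 3′ libraries (10x Genomics) were made from eWAT SVF, 1 mouse per library. The authors used bcl2fastq 2.19.1.403 and Cell Ranger 3.0.2 with the mm10 genome, and the deposited values are raw UMI counts per gene and barcode, over 31053 genes, with no barcode under 500 UMIs. How multiply mapping reads were treated is not given in the sources used here. No annotation of cells was used.

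The study's limits on UMIs, genes and mitochondrial share were applied to the 6 eWAT libraries. Cells were normalized, reduced to 25 components of 2000 variable genes (15 for APC-like cells) and clustered by the Leiden method at resolution 1 (0.6 for APC-like cells) without integration of libraries, with scanpy 1.11.5. A cluster took a class name when at least 3 of its fixed markers were each seen in at least 20% of its cells and its mean marker score passed set limits. Clusters that met no name stayed unnamed (1.64% to 4.13% of a library in the clustering of all cells). In the clustering of APC-like cells the unnamed cells were mostly of ob/ob-Veh. The largest unnamed cluster there held 1018 and 547 ob/ob-Veh cells against 13 and 1 ob/ob-Rosi cells. Doublets were scored with Scrublet and kept in the main analysis. Its automatic threshold marked 0.201% of WT-Veh 2, so in the alternative without doublets the highest scores up to the expected rate were removed in each library.

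Since cells are not replicates, each class of each library was tested as 1 sum of UMI counts, with edgeR 4.0.16 in R 4.3.3 (TMM, filterByExpr, quasi-likelihood, 3 residual degrees of freedom). All 6 eWAT libraries entered each fit, and the contrast was ob/ob-Rosi against ob/ob-Veh. The limits for a call were 0.05 on the adjusted p (Benjamini-Hochberg) and 1.1 on the fold change. The p-values rest on a spread estimated from all 6 libraries, WT-Veh included, and in part shared across genes. Each mouse gave 1 library, so the spread between mice and that between preparations cannot be told apart. With 2 libraries per group the smallest 2-sided p of an exact permutation test would be 0.33. Differences of effect between classes were tested as interactions. CPM values use the kept UMIs of the class, and intervals on shares cover counting error only. On simulated counts with 200 changed genes, 17% to 20% of changes of 1 log2 unit and 95% to 98% of changes of 2 log2 units were recovered in APC-like, Macrophage-like and EC-like cells, with 3 to 10 false calls. Median UMIs per cell ranged from 2341 to 4961, so absence of a call for a low gene is not absence of a change.

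Named genes were the 5 largest changes in each direction (3 for the whole library, Progenitor-like, Preadipocyte-like, PVM-like, DC-like, T- and NK-like and B-like) among called genes with a mean of at least 50 CPM in the higher group, no overlap between the groups, no role as another lineage's marker and no provisional symbol. Members of the gene lists and class markers were named in addition. A few genes that the rule or the lists give are not reported here. A list is described by its counts and its median beside that of all genes. The comparison, the gene lists, the markers and the promoter motifs were chosen with earlier results of these data known. Alternatives were library-size scaling, DESeq2 1.42.0, no filter, only the ob/ob libraries, a replicate block, leaving out each library, thinning to 700 UMIs, doublet removal, assignment of single cells, resolution 0.5 and removal of cells with immune RNA. Gene positions are from GRCm38, and promoters from RefSeq (GRCm38.p6).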

Additional observations from a re-analysis of the deposited data

Results flagged for a closer look

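Some genes moved in opposite directions in different cell classes. Tnc, a matricellular protein, rose in APC-like cells and fell in EC-like cells (39.1 and 33.4 CPM in ob/ob-Veh against 9.29 and 11.5 CPM in ob/ob-Rosi), and the difference between the effects was 9.27 log2 units, which passed the interaction test (edgeR, adjusted p of at most 0.05). Cxcl9, an interferon-induced chemokine, was at 0.972 and 2.67 CPM against 18.8 and 10.9 CPM in APC-like cells and at 278 and 229 CPM against 71.0 and 57.4 CPM in EC-like cells, with a difference of effects of 4.98 log2 units (adjusted p = 6.18e-06, edgeR).

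Progenitor-like and Preadipocyte-like cells moved apart for 3 genes of inflammation and stress, and the difference between these classes was not tested. The hyaluronan synthase Has1 changed by −2.91 on the log2 scale in Progenitor-like cells and by 2.62 in Preadipocyte-like cells. The stress-induced transcription factor Atf3 changed by −1.49 and 1.30, and the neutrophil chemokine Cxcl1 by −2.78 and 1.89. The libraries of each group were on the same side in each class, 2 against 2, as the rule for flagging required. That held for 46% of all genes in Progenitor-like cells and 55.3% in Preadipocyte-like cells. The directions of these 3 genes depend on how the cells were divided. A cluster of APC-like cells mostly of ob/ob-Veh (1018 and 547 cells) met neither name and is in neither class. Over all APC-like cells Has1 (−2.40) and Atf3 (−1.68) fell and Cxcl1 missed the threshold (−1.68, adjusted p = 0.0559, edgeR), and with cells assigned singly 7 of 21 TNF and NF-kB genes fell and 2 rose in Preadipocyte-like cells.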

How the results depend on the processing

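Over 80 named results and 1184 settings, 1123 kept their call, 61 lost it and none changed sign, and 58 of the 80 were called under every setting run. The rule had chosen these as the largest called changes without overlap between the groups. A change of sign was therefore unlikely from the start, and its absence is not a result. Counts of calls did move. In the order APC-like, Progenitor-like, Preadipocyte-like, Mesothelial-like, EC-like, PVM-like, DC-like, T- and NK-like and B-like, there were 1997, 689, 1928, 546, 1070, 1354, 404, 789 and 85 calls with no filter on low counts. Cells thinned to 700 UMIs gave 1545 for the whole library, 560 for APC-like, 123 for Progenitor-like, 423 for Preadipocyte-like, 35 for Mesothelial-like, 141 for EC-like, 2176 for Macrophage-like, 65 for DC-like, 173 for T- and NK-like and 17 for B-like cells, with fewer genes tested in each. DESeq2 gave 229 for Mesothelial-like, 702 for PVM-like and 243 for T- and NK-like cells and 320 for the difference between APC-like and EC-like effects. Library size alone gave 82 for DC-like cells, and the 4 ob/ob libraries on their own 170 for PVM-like and 17 for B-like cells. Cells assigned singly gave 42, 272, 585, 49 and 390 for Mesothelial-like, EC-like, PVM-like, T- and NK-like and B-like cells, and removal of doublets 314, 121 and 46 for EC-like, T- and NK-like and B-like cells. Resolution 0.5 gave 34 for DC-like cells. Without cells holding immune RNA there were 215, 294 and 14 calls in APC-like, Preadipocyte-like and EC-like cells. These were of 7723, 6564 and 1215 genes tested. Causes of these differences were not tested beyond the smaller numbers of genes and cells.

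A block on the replicate number gave 1838, 673, 2010, 584, 1567, 1193, 191, 608 and 13 calls in the same order of classes as for no filter. In the block fit the cell numbers of APC-like (−0.71, adjusted p = 0.0688), Macrophage-like (0.70, adjusted p = 0.0688) and B-like cells (−1.14, adjusted p = 0.0656, edgeR) no longer passed. Nothing in the labels says that a number marks a shared litter or day, and with 2 numbers a pairing could not be settled. The differences between replicates 1 and 2 correlated at 0.27 between ob/ob-Veh and ob/ob-Rosi, 0.42 between ob/ob-Veh and WT-Veh and 0.20 between ob/ob-Rosi and WT-Veh over 8903 genes, a description across genes.

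With each library left out in turn, calls ranged from 440 to 3025 for the whole library, 304 to 2246 for APC-like, 143 to 810 for Progenitor-like, 433 to 2139 for Preadipocyte-like, 9 to 121 for Mesothelial-like, 233 to 1328 for EC-like, 1754 to 4744 for Macrophage-like, 31 to 725 for PVM-like, 34 to 672 for DC-like, 47 to 1396 for T- and NK-like and 14 to 63 for B-like cells. A group left with 1 library is assumed to vary like the others. The log2 change of cell numbers then ranged from −0.81 to −0.60 for APC-like, 0.59 to 0.83 for Macrophage-like, −1.42 to −0.81 for B-like and 1.29 to 2.11 for Monocyte-like cells. Cells assigned singly turned the DC-like change to −0.33 (adjusted p = 0.0957) and left the Monocyte-like one at 0.60 (adjusted p = 0.0957). Removal of doublets left B-like cells at −0.64 (adjusted p = 0.172), and resolution 0.5 gave −3.62 for T- and NK-like cells (adjusted p = 0.0449), where the cluster of T and NK cells stayed unnamed and the class held ILC2-like cells alone (175 and 134 against 5 and 24). Library size alone moved the median of all genes by over 0.1 (log2) in 8 of the fits, among them B-like (−0.03 to 0.11) and T- and NK-like cells (0.00 to −0.13). Fits without immune RNA in Progenitor-like and Mesothelial-like cells (under 20 cells in a library) and at resolution 0.5 in Preadipocyte-like and T- and NK-like cells could not be made.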
